A study of Mus musculus with 24 samples.

Results

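Messenger RNA of 10 genes made in the neutrophil lineage, mostly while it matures in bone marrow, was followed in mouse olfactory epithelium. The genes were Elane and Mpo, which are transcribed early, and Camp, Ngp, Ltf, Mmp8, Retnlg, S100a8, S100a9 and Chil3, which are transcribed late. They were taken by symbol from the 57010 Ensembl IDs of the deposited tables. All 10 were found, and all 10 passed the filter on low counts in both batches.

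The tissue came from wild-type C57BL/6J males aged 8 weeks that were habituated for 4 h and then exposed for 90 min. In the AD batch the groups were the aromatic ketone acetophenone, the linear aldehyde decanal, their 1:1 mixture (the AD mixture) and no odor (the AD control). In the OC batch they were octanal, a linear aldehyde with a shorter chain, the leaf alcohol cis-3-hexenol, their 1:1 mixture (the OC mixture) and no odor (the OC control). Odorants were given as 10 µL on filter paper, control mice had empty filter paper, and each of the 8 groups had 3 biological replicates. All groups shared the perfusion with chilled buffer, and the RNA came from a homogenate spun to clear it before and after detergent was added.

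Neutrophils store antimicrobial proteins in granules that are filled in sequence. Azurophil proteins such as neutrophil elastase and myeloperoxidase are transcribed in promyelocytes, specific and gelatinase granule proteins in myelocytes and metamyelocytes, and most of this transcription has ended when the cell leaves the marrow for the blood. Transcripts of the early granule genes are therefore commonly read as a mark of immature, marrow-stage cells, and lactoferrin, the product of Ltf, is also made by exocrine glands.

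The libraries held 19003768 to 24802512 counts each. The tissue label was checked with 10 markers of mature olfactory sensory neurons, which summed to between 17089 and 23178 CPM (counts scaled to library sizes of 1000000) and were all above 0 in every group. Transcripts of mitochondrial DNA took 0.233% to 0.915% of counts and differed between groups, as given below. The 9 granule genes other than Ltf were scarce here. Together they took 0.00064% to 0.021% of the counts of a library.

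The start of each gene was read from RefSeq for the build GRCm38.p6, where 10 of 10 genes matched. Windows of 250 bases before to 50 bases after the start were searched on both strands for TTGCNNAA, a binding motif of the C/EBP family that drives granulocyte genes, and for GAGGAAG, a motif of PU.1. The C/EBP letters were in 5 of the 10 windows (Ngp, Ltf, Mmp8, Retnlg and S100a9) and in 3547 of all 32851 windows, or 10.8%. The PU.1 letters were in 4 of the 10 (Elane, Mpo, Mmp8 and S100a8) and in 13.6% of all windows, and no match of one motif overlapped the other. The 150 bases before the start are shown for 4 genes whose values are set against each other below, with motif letters in capitals. Elane is the early gene, at chr10:79886162-79886311 (plus strand), with a PU.1 match at positions -85 to -79 from the start. Ngp, at chr9:110419658-110419807 (plus strand), has C/EBP matches at -138 to -131 and -11 to -4, and Ltf, at chr9:111019142-111019291 (plus strand), has one at -75 to -68. Camp, at chr9:109849457-109849606 (minus strand), holds neither motif. Its highest library was 311 times its lowest, which held 1 count, and this was the largest such ratio among the 9 genes with no library at 0.
Elane: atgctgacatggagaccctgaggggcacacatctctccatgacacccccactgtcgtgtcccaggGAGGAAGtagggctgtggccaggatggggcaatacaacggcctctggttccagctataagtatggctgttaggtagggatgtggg
Ngp: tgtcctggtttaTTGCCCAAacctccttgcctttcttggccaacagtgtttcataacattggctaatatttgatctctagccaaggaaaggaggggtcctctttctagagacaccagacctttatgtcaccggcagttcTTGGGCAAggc
Ltf: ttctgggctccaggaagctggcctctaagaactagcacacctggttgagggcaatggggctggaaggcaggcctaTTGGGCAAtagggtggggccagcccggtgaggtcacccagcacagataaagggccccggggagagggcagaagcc
Camp: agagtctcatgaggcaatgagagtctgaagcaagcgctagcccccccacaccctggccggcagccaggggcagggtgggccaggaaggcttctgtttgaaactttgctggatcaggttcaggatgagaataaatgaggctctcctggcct

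Among themselves the genes fell into 9 that moved together and Ltf, which did not. Over the 24 libraries, with each batch centred on its own mean, the 36 pairs among the 9 had Pearson correlations of log2 CPM between 0.89 and 0.99 (median 0.94), and Ltf had correlations of 0.14 to 0.34 with them. The libraries fall into groups, so these values describe the group differences as much as the genes. With each group centred on its own mean, the 36 pairs ran between 0.30 and 0.95 (median 0.62) and Ltf between -0.32 and 0.26. Per kilobase of transcript, the median level over all libraries was highest for Ltf at 58.5 CPM per kb, followed by S100a9 at 45.7, S100a8 at 39.1, Ngp at 11.5, Elane at 4.60, Camp at 3.99, Mpo at 3.94, Retnlg at 2.35, Chil3 at 2.21 and Mmp8 at 0.341 CPM per kb. The ranges over libraries of neighbours in this order overlapped. From the lowest to the highest library, Camp spanned 0.0424 to 13.2 CPM and Ltf 96.1 to 580 CPM.

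**Figure D1:**
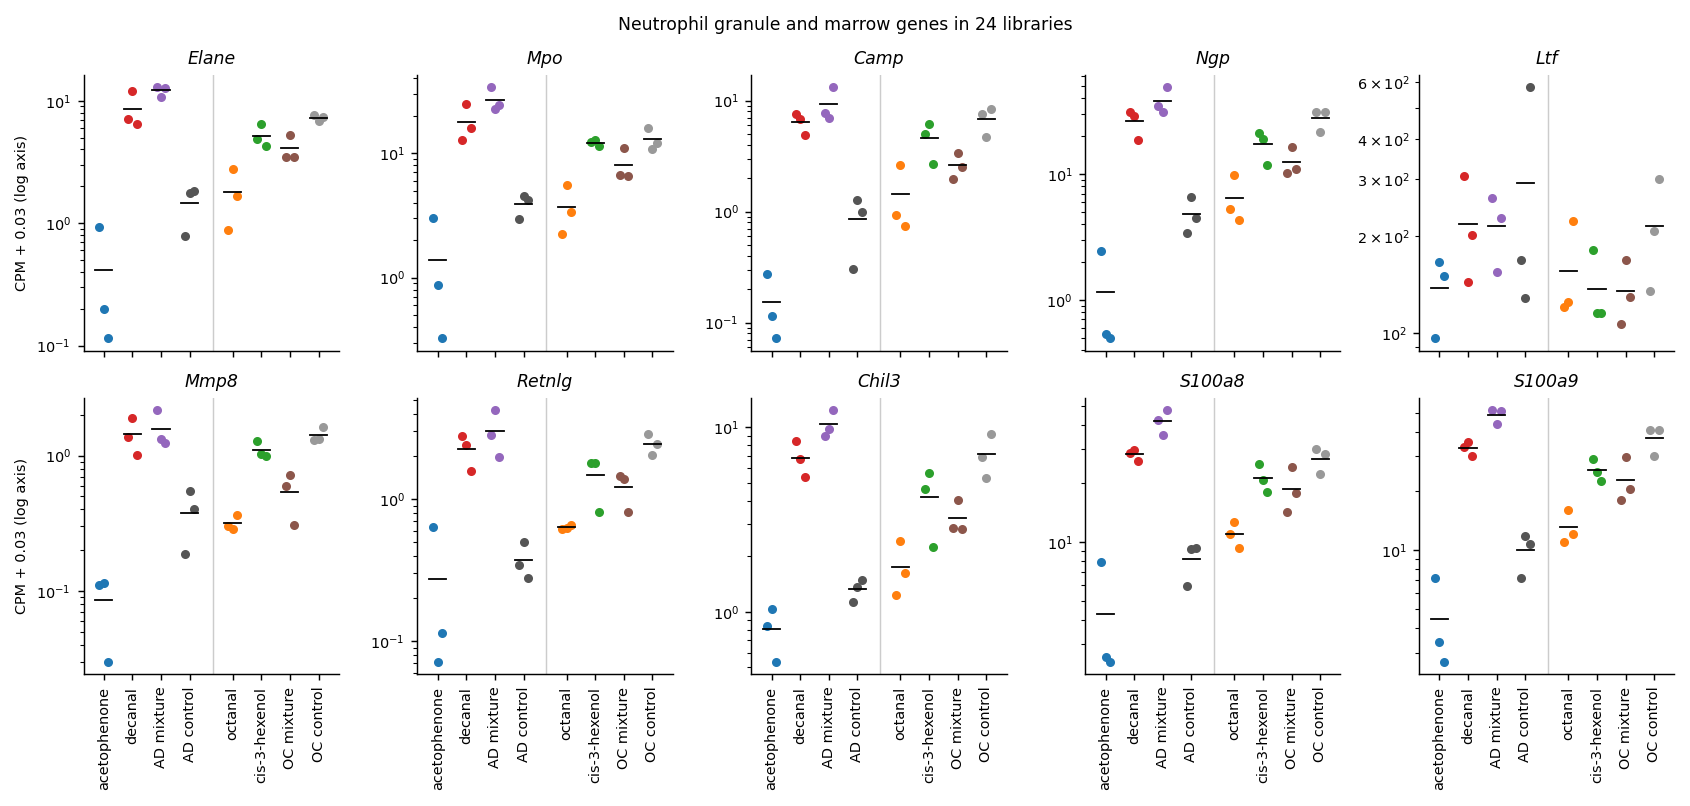
Level of each gene in every library, as CPM plus a small offset on a log axis, with the odorant groups left of the control in each batch. Points are libraries and bars are group means (n = 3): Camp averaged 6.40 CPM with decanal and 0.826 CPM in the AD control, and in the Ltf panel 1 AD control library stands at 580 CPM.

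Decanal was set against no odor to ask how this aldehyde changes the tissue's messenger RNA. Of the 10 genes, 9 were higher with decanal than in the AD control and Ltf was not called, where 11.4% of all 19525 genes tested were called higher. Here called means a p under 0.05 in edgeR's quasi-likelihood test after Benjamini-Hochberg adjustment over all genes. The 9 had log2 fold changes of 1.74 to 2.96 (median 2.39), beside a median of 0.01 over all genes tested. For the same 9 genes every decanal library lay above every AD control library, which held for 20.7% of all genes. In whole tissue, fewer cells of a type and less RNA per cell cannot be told apart, and likewise more of either.

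Among the early genes, Elane, the serine protease of azurophil granules, stood at 7.06, 12.05 and 6.38 CPM with decanal, against 0.748, 1.72 and 1.79 CPM in the AD control. The highest decanal library was the second, and the groups were well apart. The log2 fold change was 2.59 (SE 0.38, adjusted p = 0.000238), or 6.01-fold. Mpo, which encodes the peroxidase that makes hypochlorous acid, stood at 12.8, 24.6 and 15.8 CPM with decanal and at 2.92, 4.46 and 4.21 CPM in the AD control, with the same decanal library highest. Its log2 fold change was 2.20 (SE 0.36, adjusted p = 0.000519).

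Late genes of the specific granules moved as far. Camp, which encodes the cathelicidin precursor of an antimicrobial peptide, stood at 7.48, 6.84 and 4.88 CPM with decanal, against 0.276, 1.24 and 0.959 CPM in the AD control, and had the largest change of the 10 (log2 fold change 2.96, SE 0.39, adjusted p = 9.61e-05). Ngp, a cystatin-related granule protein of mouse neutrophils, stood at 31.3, 29.0 and 18.5 CPM with decanal and at 3.35, 6.53 and 4.42 CPM in the AD control (log2 fold change 2.47, SE 0.32, adjusted p = 8.92e-05). In both genes the third decanal library was the lowest of its group and still above every control. Mmp8, the neutrophil collagenase, rested on 32, 45 and 23 counts with decanal and 4, 12 and 9 counts in the AD control (log2 fold change 2.00, SE 0.47, adjusted p = 0.0062). Retnlg, a resistin-like protein of mouse myeloid cells, had 65, 57 and 36 counts with decanal and 8, 11 and 6 counts in the AD control (log2 fold change 2.67, SE 0.54, adjusted p = 0.00222). These were the least counted of the genes, and their standard errors were the largest of the 9.

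S100a8 and S100a9 encode the cytosolic subunits of calprotectin, which binds zinc and manganese, and lie next to each other on chromosome 3. S100a9 stood at 33.5, 35.3 and 30.1 CPM with decanal, against 7.21, 11.8 and 10.8 CPM in the AD control. S100a8 stood at 28.5, 29.7 and 26.2 CPM with decanal and at 5.95, 9.19 and 9.29 CPM in the AD control. Their decanal libraries were close to each other and their changes were the smallest of the 9, at 1.74 for S100a9 (SE 0.22, adjusted p = 7.42e-05) and 1.79 for S100a8 (SE 0.27, adjusted p = 0.000304) on the log2 scale. Chil3, a chitinase-like protein of mouse myeloid cells, stood at 8.45, 6.67 and 5.35 CPM with decanal and at 1.103, 1.33 and 1.46 CPM in the AD control (log2 fold change 2.39, SE 0.23, adjusted p = 1.04e-05). Chil3 is uncertain, because its neighbour Chil4 is a near-identical copy with which reads could be shared. Chil4 averaged 103 ± 64.8 CPM with decanal and 26.4 ± 2.43 CPM in the AD control (SD, n = 3 each).

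Ltf, the iron-binding lactoferrin, stood apart. It was at 307, 144 and 201 CPM with decanal and at 169, 129 and 580 CPM in the AD control, so the groups overlapped and the third control library exceeded all others. The log2 fold change was -0.43 (SE 0.43, adjusted p = 0.523). Without that control library it was 0.55 (adjusted p = 0.221). Without the filter on low counts Ltf was called lower, at -0.44 (SE 0.096, adjusted p = 0.000106). The value was thus nearly the same, and the call came with a smaller standard error although the control libraries spread from 129 to 580 CPM.

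The AD mixture was set against the same 3 control libraries, so its values share them with decanal and acetophenone. Again 9 of the 10 genes were higher than in the AD control, where 10.6% of all genes were called higher, and the same 9 had no overlap between the groups, where 18.6% of all genes had none. Their log2 fold changes ran between 2.15 and 3.50 (median 2.99), each above that of the same gene with decanal, but the mixture and decanal were not compared by a test.

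Elane stood at 12.9, 10.7 and 12.7 CPM in the AD mixture, against 0.748, 1.72 and 1.79 CPM in the AD control (log2 fold change 3.10, SE 0.38, adjusted p = 4.76e-05). Mpo stood at 33.8, 22.5 and 24.3 CPM in the AD mixture, and its log2 fold change was 2.80 (SE 0.36, adjusted p = 6.79e-05). The mixture libraries of Elane were closer together than those of Mpo, and both genes were far above the control. Camp stood at 7.78, 6.94 and 13.2 CPM in the AD mixture and Ngp at 34.5, 31.3 and 49.0 CPM. The third mixture library was the highest for both, and the log2 fold changes were 3.50 for Camp (SE 0.39, adjusted p = 2.1e-05) and 3.01 for Ngp (SE 0.32, adjusted p = 1.49e-05).

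S100a9 stood at 51.5, 44.1 and 51.2 CPM in the AD mixture, and its log2 fold change was 2.31 (SE 0.22, adjusted p = 7.3e-06). S100a8 stood at 42.2, 35.4 and 47.3 CPM there (log2 fold change 2.36, SE 0.27, adjusted p = 3.08e-05). Both subunits were lowest in the second mixture library, which was also the lowest for Mpo, Camp and Ngp. Chil3 changed by 2.99 (SE 0.23, adjusted p = 1.3e-06), Retnlg by 3.09 (SE 0.53, adjusted p = 0.000755) and Mmp8 by 2.15 (SE 0.47, adjusted p = 0.00407) on the log2 scale. Ltf was at 263, 155 and 227 CPM in the AD mixture, inside the range of the AD control, and its log2 fold change was -0.44 (SE 0.43, adjusted p = 0.513). Without the third control library its value was 0.53 (adjusted p = 0.254). Without the filter it was called lower at -0.46 (adjusted p = 5.91e-05), again with a smaller standard error (0.096).

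For the 9 genes other than Ltf, the acetophenone group means were the lowest of the series. None of the 10 genes was called against the AD control, where 0% of all genes were called lower. All 10 log2 fold changes were below 0, and 9 had an unadjusted p under 0.05, as had 1287 of all genes tested. In this comparison edgeR called 1 gene in all, and DESeq2 called 25 genes and none of the 10, with 0.0662% of all genes called lower. Without the filter edgeR called 8 of the 10 lower, where 0.640% of the 33134 genes then tested were called lower. The fold changes of these 8 hardly moved, while their standard errors shrank. For Ngp the values were -2.05 (SE 0.18) without the filter and -2.04 (SE 0.46) with it. The 9 genes without Ltf had a median log2 fold change of -1.48, and 5 of the 10 genes lay below every control library, where 6.34% of all genes did.

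The first acetophenone library was the highest of its group for 7 of the 10 genes, all but Chil3, Mmp8 and Ltf. Elane had 22, 4 and 2 counts with acetophenone, against 19, 40 and 43 counts in the AD control (log2 fold change -1.85, SE 0.56, adjusted p = 0.526). Camp had 6, 2 and 1 counts with acetophenone and 7, 29 and 23 counts in the AD control (log2 fold change -2.66, SE 0.67, adjusted p = 0.414). Ngp had 60, 12 and 11 counts with acetophenone and 85, 152 and 106 counts in the AD control (log2 fold change -2.04, SE 0.46, adjusted p = 0.412). The first acetophenone library was within the control range for Elane and below it for Camp and Ngp. Mmp8 had 2, 2 and 0 counts with acetophenone, and a count of 0 allows up to 3 counts, or 0.127 CPM, in that library. Chil3 had 20, 24 and 12 counts with acetophenone, highest in the second library. S100a9 stood at 7.17, 3.35 and 2.67 CPM with acetophenone and at 7.21, 11.8 and 10.8 CPM in the AD control (log2 fold change -1.16, SE 0.26, adjusted p = 0.412). Without the first acetophenone library 5 of the 10 genes were called lower by edgeR, where 33 of all 19893 genes tested, or 0.166%, were called lower. They were Elane (adjusted p = 0.0397), Mpo (0.0341), Ngp (0.0104), S100a8 (0.00226) and S100a9 (0.00159). Ltf stood at 96.1, 166 and 150 CPM with acetophenone (log2 fold change -1.09, SE 0.43, adjusted p = 0.677), and here the first library was the lowest.

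Octanal was set against the OC control, and the genes moved the other way. Of the 10, 9 were lower with octanal than in the OC control, where 15.0% of all 19175 genes tested were called lower, and the log2 fold changes of the 9 ran between -2.28 and -1.29 (median -2.03). Every octanal library lay below every OC control library for these 9, which held for 20.6% of all genes. Ltf was again the one not called.

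Elane stood at 0.852, 2.76 and 1.64 CPM with octanal, against 7.58, 6.80 and 7.34 CPM in the OC control. The second octanal library was the highest, and all were well below the control. The log2 fold change was -2.04 (SE 0.30, adjusted p = 0.000257), or 4.11-fold lower. Mpo stood at 2.20, 5.52 and 3.36 CPM with octanal and at 15.9, 10.7 and 12.1 CPM in the OC control, with the same order among the octanal libraries (log2 fold change -1.80, SE 0.26, adjusted p = 0.000271).

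Camp stood at 0.897, 2.59 and 0.714 CPM with octanal, against 7.46, 4.68 and 8.34 CPM in the OC control (log2 fold change -2.28, SE 0.41, adjusted p = 0.000942). Ngp stood at 5.29, 9.81 and 4.24 CPM with octanal and at 31.0, 21.5 and 30.9 CPM in the OC control (log2 fold change -2.11, SE 0.28, adjusted p = 0.000161). In both, the second octanal library was the highest and the second control library the lowest, and they did not meet. Mmp8 rested on 6, 6 and 8 counts with octanal and 31, 27 and 34 counts in the OC control (log2 fold change -2.25, SE 0.38, adjusted p = 0.000607). Retnlg had 13, 14 and 15 counts with octanal and 70, 42 and 51 counts in the OC control (log2 fold change -2.01, SE 0.34, adjusted p = 0.000726). The octanal counts of these genes were almost equal between libraries.

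S100a9 stood at 10.98, 16.1 and 11.97 CPM with octanal and at 40.9, 30.1 and 40.8 CPM in the OC control (log2 fold change -1.52, SE 0.18, adjusted p = 0.00011). S100a8 had the smallest change of the 9, at -1.29 (SE 0.18, adjusted p = 0.000204). Chil3 changed by -2.03 (SE 0.33, adjusted p = 0.000457). Its copy Chil4 stood at 71.7 ± 54.2 CPM with octanal and 57.5 ± 18.6 CPM in the OC control (SD, n = 3 each). Ltf stood at 120, 124 and 222 CPM with octanal and at 135, 208 and 301 CPM in the OC control, which overlap (log2 fold change -0.46, SE 0.28, adjusted p = 0.231). Ltf was called lower without the third octanal library, at -0.81 (adjusted p = 0.0487). It was also called without the filter, at -0.45 (adjusted p = 6.58e-07), where the standard error shrank to 0.080.

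The OC mixture shares the OC control libraries with octanal. Of the 10 genes, 8 were lower in the OC mixture, where 12.7% of all genes were called lower. Mpo, at -0.69 (SE 0.25, adjusted p = 0.0547), and Ltf, at -0.67 (SE 0.28, adjusted p = 0.0899), missed the threshold. DESeq2 called Mpo as well, at -0.67 (adjusted p = 0.0295), where it called 12.8% of all genes lower. The 9 genes without Ltf had log2 fold changes of -1.44 to -0.52 (median -1.03), and 7 of the 10 lay below every control library, where 17.9% of all genes did.

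Camp stood at 1.95, 3.37 and 2.49 CPM in the OC mixture, against 7.46, 4.68 and 8.34 CPM in the OC control (log2 fold change -1.40, SE 0.38, adjusted p = 0.0153). Ngp stood at 10.2, 16.4 and 10.9 CPM in the OC mixture and at 31.0, 21.5 and 30.9 CPM in the OC control (log2 fold change -1.16, SE 0.26, adjusted p = 0.00526). The second mixture library was the highest for both genes. Elane stood at 3.46, 5.23 and 3.46 CPM in the OC mixture, below the 6.80 to 7.58 CPM of the OC control (log2 fold change -0.84, SE 0.28, adjusted p = 0.0362). The call of Elane was lost with offsets for transcript length and GC content, at -0.66 (adjusted p = 0.0997). S100a9, at 18.0, 29.6 and 20.5 CPM in the OC mixture, came close to the lowest control library, at 30.1 CPM (log2 fold change -0.72, SE 0.18, adjusted p = 0.00803). Mmp8 changed by -1.44 (SE 0.35, adjusted p = 0.00804), Chil3 by -1.16 (SE 0.31, adjusted p = 0.0127), Retnlg by -1.03 (SE 0.32, adjusted p = 0.0287) and S100a8 by -0.52 (SE 0.17, adjusted p = 0.041). The count of 8 rested on few libraries: 3 genes were called without the third OC control library, 3 without the first mixture library and 4 without the third mixture library. In those fits 10.3%, 7.88% and 9.06% of all genes were called lower, in the same order.

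Cis-3-hexenol gave the median closest to 0. None of the 10 genes was called, where 6.65% of all genes were called lower. All 10 log2 fold changes were nonetheless below 0 (median of the 9 genes without Ltf -0.55). An unadjusted p under 0.05 was found for 5 of the 10, and in either direction for 5353 of all 19175 genes tested. DESeq2 called S100a9, at -0.54 (adjusted p = 0.018), where it called 8.76% of all genes lower. Without the filter edgeR called 5 of the 10 lower, where 5.04% of the 32796 genes then tested were called lower. Standard errors were smaller in that fit, for Ngp 0.11 beside 0.26 with the filter, at the same log2 fold change of -0.69. S100a9 came nearest in the fit as designed, at 29.1, 24.9 and 22.5 CPM with cis-3-hexenol, against 40.9, 30.1 and 40.8 CPM in the OC control (log2 fold change -0.55, SE 0.18, adjusted p = 0.0525). Ngp stood at 21.2, 18.98 and 11.8 CPM with cis-3-hexenol (log2 fold change -0.69, SE 0.26, adjusted p = 0.0949). Both genes lay below every control library, as did 5 of the 10 genes and 15.5% of all genes. Without the second OC control library these 2 genes were called, with adjusted p = 0.0498 for Ngp and 0.0196 for S100a9, where 8.70% of all genes were called lower. Mpo stood at 12.3, 12.7 and 11.4 CPM with cis-3-hexenol, inside the 10.7 to 15.9 CPM of the OC control (log2 fold change -0.09, SE 0.24, adjusted p = 0.849).

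**Figure D2:**
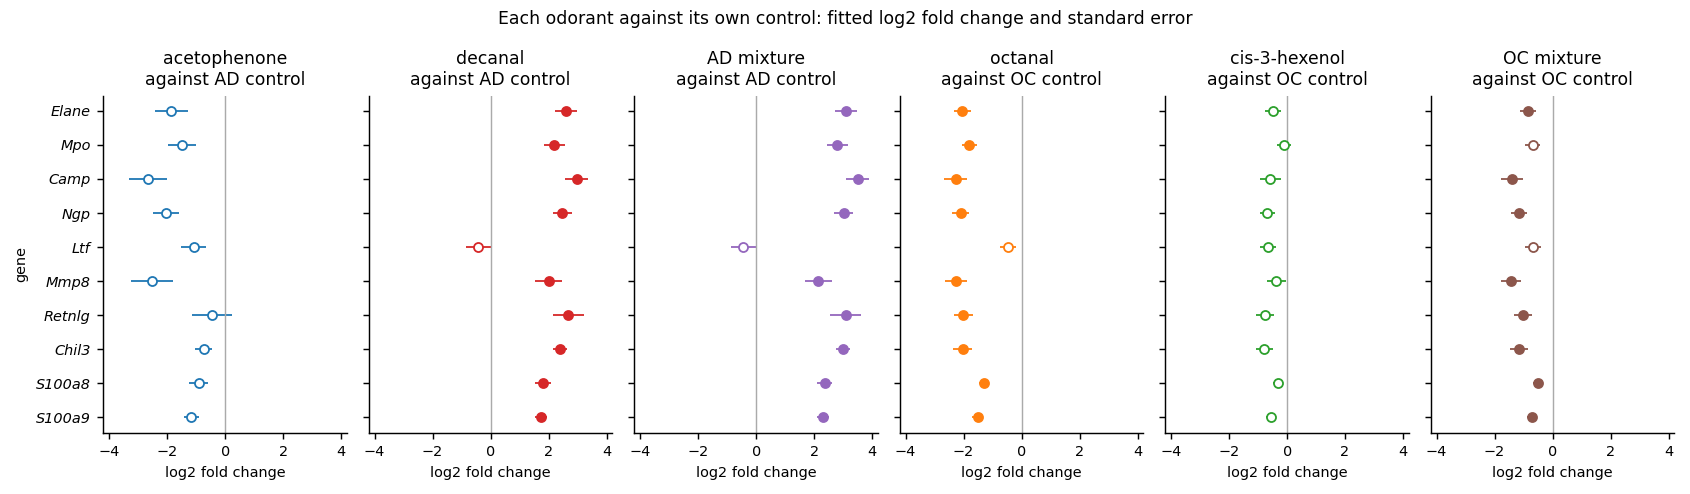
Fitted log2 fold change of each gene (points) with its standard error (lines), 1 panel per odorant against its own control. Filled points passed the adjusted threshold: 9 with decanal, 9 in the AD mixture, 9 with octanal, 8 in the OC mixture and none with acetophenone or cis-3-hexenol.

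Decanal and octanal are linear aldehydes that differ in chain length, given at the same volume and time but in different batches. The difference between their responses, each against its own control, was tested as 1 pair in a fit of all 24 libraries. It was called for 9 of the 10 genes, where 21.2% of all 20018 genes tested were called in that direction, and the log2 difference of the 9 ran between 3.10 and 5.26 (median 4.45), beside a median of 0.07 over all genes. For Camp the decanal response exceeded the octanal response by 5.26 (SE 0.62, adjusted p = 6.68e-07), and for S100a8 by 3.10 (SE 0.37, adjusted p = 6.94e-07). For Ltf the difference was 0.05 (SE 0.58, adjusted p = 0.954). The compound cannot be told apart from the batch here, and the controls of the batches already stood at different levels.

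The 9 genes without Ltf were 3.29 to 8.26 times as high in the OC control as in the AD control (median 5.10). Camp averaged 6.83 ± 1.91 CPM in the OC control and 0.826 ± 0.498 CPM in the AD control (SD, n = 3 each). Elane averaged 7.24 ± 0.402 CPM in the OC control and 1.42 ± 0.582 CPM in the AD control. Neither pair overlapped. Ltf was 0.734 times as high in the OC control. The summed level of the 9 genes was 133, 148 and 110 CPM with decanal, against 22.0, 37.3 and 33.5 CPM in the AD control. It was 33.3, 52.6 and 33.8 CPM with octanal, against 144, 105 and 141 CPM in the OC control. The octanal libraries thus lay near the AD control and the decanal libraries near the OC control. Across batches these levels cannot be told apart from the batch, and no test was made.

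Early and late genes moved together. Elane and Mpo summed to 3.85, 1.00 and 0.381 CPM with acetophenone, 19.8, 36.6 and 22.1 CPM with decanal, 46.7, 33.2 and 37.0 CPM in the AD mixture and 3.66, 6.18 and 6.00 CPM in the AD control. The 7 late genes without Ltf summed to 19.2, 7.61 and 6.19 CPM with acetophenone, 113, 112 and 87.6 CPM with decanal, 150, 133 and 176 CPM in the AD mixture and 18.4, 31.1 and 27.5 CPM in the AD control. Both sums thus rank the groups alike. The late over early ratio averaged 9.60 with acetophenone, 4.24 with decanal, 3.99 in the AD mixture and 4.87 in the AD control. The acetophenone mean rests on library 3, at 16.2, where the early genes had 9 counts in all, and the other libraries were at 4.99 and 7.58.

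In the OC batch Elane and Mpo summed to 3.05, 8.28 and 5.00 CPM with octanal, 17.1, 19.1 and 15.6 CPM with cis-3-hexenol, 10.1, 16.2 and 9.96 CPM in the OC mixture and 23.5, 17.5 and 19.4 CPM in the OC control. The late over early ratio without Ltf averaged 7.01 with octanal, 4.36 with cis-3-hexenol, 5.13 in the OC mixture and 5.45 in the OC control. The octanal libraries stood at 9.93, 5.35 and 5.76 and overlapped the control libraries, at 5.12, 4.99 and 6.25, so a shift between early and late genes was not seen beyond the spread. Including Ltf, which made up 52.9% to 96.0% of the late level, the ratio averaged 204 with acetophenone, 13.7 with decanal, 9.46 in the AD mixture and 59.4 in the AD control. It averaged 40.0 with octanal, 12.4 with cis-3-hexenol, 16.4 in the OC mixture and 16.5 in the OC control. With Ltf included the ratio was high in the groups whose early genes were low.

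**Figure D3:**
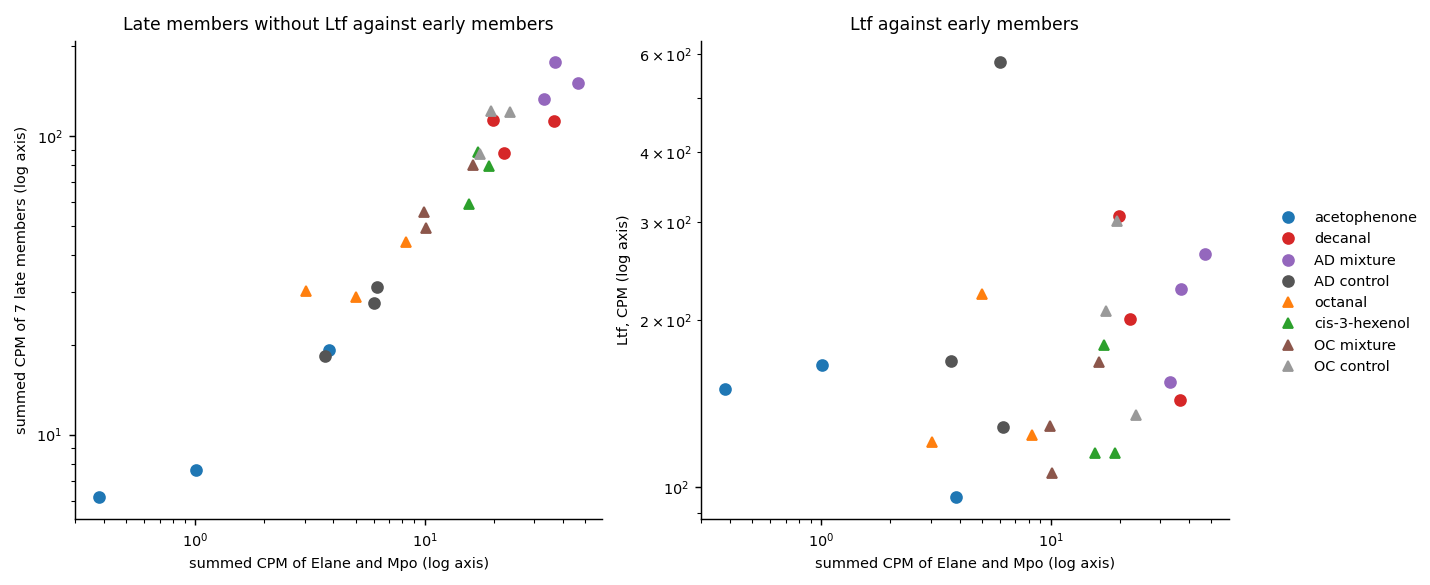
Summed CPM of the 7 late genes without Ltf (left) and CPM of Ltf (right) against the summed CPM of Elane and Mpo, all on log axes, 1 point per library with circles for the AD batch and triangles for the OC batch. On the left the points run along 1 line from acetophenone to the AD mixture, and on the right Ltf stays between 96.1 and 580 CPM without such an order.

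Other genes of the lineage were counted by granule type. The counts of these and the following lists stand beside the shares of all genes tested, of which 11.4% were called higher with decanal, 10.6% higher in the AD mixture, 15.0% lower with octanal, 12.7% lower in the OC mixture and 6.65% lower with cis-3-hexenol. In the opposite direction the shares were 12.5% lower with decanal, 11.6% lower in the AD mixture, 14.4% higher with octanal, 11.5% higher in the OC mixture and 5.56% higher with cis-3-hexenol. Of 10 further azurophil and promyelocyte genes, 6 were higher with decanal (median log2 fold change 0.69), among them the protease genes Ctsg at 2.34 (adjusted p = 0.0036) and Cfd, which encodes complement factor D, at 2.16 (adjusted p = 0.0017). In the AD mixture 6 of these 10 were higher (median 0.99), led by Ms4a3 at 2.91 (adjusted p = 0.00103). With octanal 5 of the 10 were lower (median -0.64), among them Ctsg at -1.83 (adjusted p = 0.00124). In the OC mixture only Ctsg was lower, at -1.18 (adjusted p = 0.0153), and with cis-3-hexenol and acetophenone none was called. These 10 genes summed to 123 to 132 CPM with decanal, against 100 to 104 CPM in the AD control. They summed to 94.2 to 97.7 CPM with octanal, against 112 to 132 CPM in the OC control. This sum changed by a smaller factor than that of Elane and Mpo, and which cells express these genes was not tested.

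Of 23 further genes of specific and gelatinase granules, 17 could be tested. With decanal 7 were higher (median 0.61), such as the haptoglobin gene Hp at 1.03 (adjusted p = 0.000606) and Trem3 at 2.76 (adjusted p = 0.00232). In the AD mixture 9 were higher (median 0.98), such as Fcnb, a ficolin gene, at 2.62 (adjusted p = 0.000299) and the gelatinase gene Mmp9 at 0.91 (adjusted p = 9.31e-05). With octanal 8 were lower and 1 higher (median -0.75), with Hp at -1.57 (adjusted p = 0.000246), Fcnb at -2.10 (adjusted p = 0.00182) and Lcn2, which encodes an iron-sequestering lipocalin, at -1.01 (adjusted p = 0.0028). In the OC mixture 4 were lower, in cis-3-hexenol only Pglyrp1, at -0.72 (adjusted p = 0.0207), and with acetophenone none was called. Several genes of this list, among them Lyz2, Anxa1 and Lcn2, are also expressed by other cells of the tissue, and 1 to 4 of the 23 were at 0 in all 3 libraries of a group, mostly stefin A genes.

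Markers of mature and blood neutrophils were called in few cases in the AD batch and in more with octanal. Of 16 such genes the AD batch allowed tests of 10 and the OC batch of 9. With decanal 1 of the 10 was higher (median 0.48) and in the AD mixture 1 of the 10 (median 0.49), near the 11.4% and 10.6% of all genes. With octanal 4 of the 9 were lower, beside 15.0% of all genes. Their list median of -0.76 was as far from 0 as the -0.75 of the specific and gelatinase granule list. Among the 4 was Csf3r, the receptor of granulocyte colony-stimulating factor, at -0.80 (adjusted p = 0.0305). In the OC mixture 2 of the 9 were lower (median -0.30), beside 12.7%. None was called with cis-3-hexenol or acetophenone, where 6.65% and 0% of all genes were called lower. The 16 genes summed to 35.5 to 39.7 CPM with decanal, against 31.4 to 31.7 CPM in the AD control, and to 29.0 to 31.2 CPM with octanal, against 42.8 to 50.6 CPM in the OC control, with no gene at 0 in all libraries of a group. The sum thus moved in the direction of the granule genes, by a smaller factor.

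Erythroid, platelet and bone matrix markers moved with the granule genes where those were called, and B cell markers did so in part. Of 12 erythroid genes, 8 were higher with decanal (median 1.76), 10 were higher in the AD mixture (1.95), 12 were lower with octanal (-1.61), 9 were lower in the OC mixture (-1.13) and 5 were lower with cis-3-hexenol (-0.70). Their summed level was 2162 to 2602 CPM with decanal, against 500 to 659 CPM in the AD control, and 754 to 1136 CPM with octanal, against 2179 to 4517 CPM in the OC control. With acetophenone no erythroid gene was called (median -0.51), and the sum was 231 to 636 CPM, overlapping the AD control. No group had an erythroid gene at 0 in all 3 libraries. The globin gene Hbb-bs, for one, changed by 2.05 with decanal (adjusted p = 6.51e-05) and by -1.61 with octanal (adjusted p = 0.000824).

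Bone matrix genes changed in the same directions at a smaller scale. Of 12 such genes, 7 were higher with decanal (median 0.61), 10 were higher in the AD mixture (0.93), 7 were lower with octanal (-0.72), 8 were lower in the OC mixture (-0.64) and 5 were lower with cis-3-hexenol (-0.57). Bglap, the osteocalcin gene, changed by 0.88 with decanal (adjusted p = 4.26e-05) and by -1.04 with octanal (adjusted p = 0.000279). The 12 genes summed to 1805 to 2453 CPM with decanal and 1283 to 1506 CPM in the AD control, and to 1097 to 1272 CPM with octanal and 2112 to 3333 CPM in the OC control. With acetophenone, where the granule genes were lowest, no bone matrix gene was called (median -0.08), and 0% of all genes were called lower there. The sum of the bone matrix genes was 1366 to 1584 CPM, overlapping the 1283 to 1506 CPM of the AD control. Of 7 megakaryocyte and platelet genes tested, 4 were higher with decanal and 4 in the AD mixture, and 4 were lower with octanal and 5 in the OC mixture. Among them Pf4, platelet factor 4, changed by 1.87 with decanal (adjusted p = 0.000118) and by -1.62 with octanal (adjusted p = 0.000184).

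Further cell types were examined with shorter lists. Of 3 testable genes of eosinophils, basophils and mast cells, the eosinophil granule genes Prg2, at 3.66 (adjusted p = 5.14e-05), and Epx, at 2.21 (adjusted p = 0.011), were higher with decanal. Of 11 macrophage and monocyte genes, 5 were higher with decanal (median 0.28) and 6 were lower with octanal (median -0.42), and their sum was 158 to 192 CPM with decanal, against 123 to 130 CPM in the AD control. Of 11 genes of B cell precursors 5 could be tested in the AD batch. Cd79a, at 2.28 (adjusted p = 0.00587), and Cd79b, at 1.34 (adjusted p = 0.0194), were higher with decanal, and Ebf1, at -0.21 (adjusted p = 0.0231), was lower. In the AD mixture Cd79a, at 2.26 (adjusted p = 0.00655), and Cd79b, at 1.14 (adjusted p = 0.0459), were higher. Both were lower with octanal, at -1.59 for each (adjusted p = 0.00811 and 0.0103), and in the OC mixture, at -1.13 and -1.52 (adjusted p = 0.0462 and 0.0155), which made 2 of 4 genes tested in each. The sum of the 11 genes ran the other way with decanal, at 222 to 248 CPM, against 257 to 266 CPM in the AD control. It overlapped its control with octanal, at 241 to 248 CPM against 238 to 259 CPM in the OC control. Ebf1, which olfactory neurons also express, made up 82.4% to 91.04% of this sum. The other 10 genes summed to 34.9 to 39.1 CPM with decanal and 25.3 to 28.3 CPM in the AD control. In the OC batch these 10 summed to 29.4 to 31.4 CPM with octanal and 31.3 to 44.8 CPM in the OC mixture. Both ranges overlapped the OC control, at 29.7 to 40.4 CPM. Rag1, Rag2 and Vpreb2 were at 0 in all acetophenone libraries, but such zeros were not particular to that group. Vpreb2 was also at 0 in all AD mixture and all octanal libraries. Rag1 was at 0 in all octanal and all cis-3-hexenol libraries, and Rag2 in all AD control libraries. Of 5 T and NK cell genes tested, 1 was higher with decanal and none was lower with octanal, and of 6 osteoclast genes 2 were higher with decanal and 2 lower with octanal. With acetophenone the osteoclast sum was 66.5 to 85.0 CPM, below the 89.8 to 102.9 CPM of the AD control. The eosinophil, basophil and mast cell sum was 0.763 to 1.22 CPM, below 1.46 to 1.79 CPM. No gene of these lists was called there. The macrophage, platelet, B cell and T and NK cell sums overlapped the AD control.

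Markers of the epithelium itself were called too, mostly in the opposite direction for the neurons. Of the 10 markers of mature olfactory sensory neurons, 5 were lower and 1 higher with decanal (median -0.28), and 7 were lower and 1 higher in the AD mixture (-0.33). With octanal 5 were higher and 2 lower (0.24), in the OC mixture 6 were higher and 1 lower (0.32), and with cis-3-hexenol 6 were higher and 1 lower (0.30). None was called with acetophenone (0.03). Adcy3, the adenylyl cyclase of odor transduction, changed by -0.40 with decanal (adjusted p = 0.00135), while Gng13, a G protein subunit, changed by 0.51 (adjusted p = 0.000826). Omp, the olfactory marker protein gene, was lower with octanal, at -0.45 (adjusted p = 0.000105), and the summed level of the 10 overlapped its control in every comparison. Of 9 genes of sustentacular, basal and gland cells, 2 were higher and 3 lower with decanal (median -0.11), 1 higher and 3 lower in the AD mixture (-0.03), 3 higher and 1 lower with octanal (0.09), 2 higher and 3 lower in the OC mixture (0.03), 2 lower with cis-3-hexenol (0.11) and none called with acetophenone (-0.03).

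The share of mitochondrial DNA transcripts moved with the granule genes in part. It was 0.259% to 0.325% with acetophenone, 0.753% to 0.795% with decanal, 0.751% to 0.881% in the AD mixture and 0.233% to 0.276% in the AD control. It was 0.387% to 0.461% with octanal, 0.729% to 0.811% with cis-3-hexenol, 0.470% to 0.834% in the OC mixture and 0.595% to 0.915% in the OC control. Decanal and the AD mixture thus stood above their control, octanal below its control, and acetophenone, where the granule genes were lowest, beside the AD control. The part of these cell types and of this share in the differences between odorants was not tested.

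**Figure D4:**
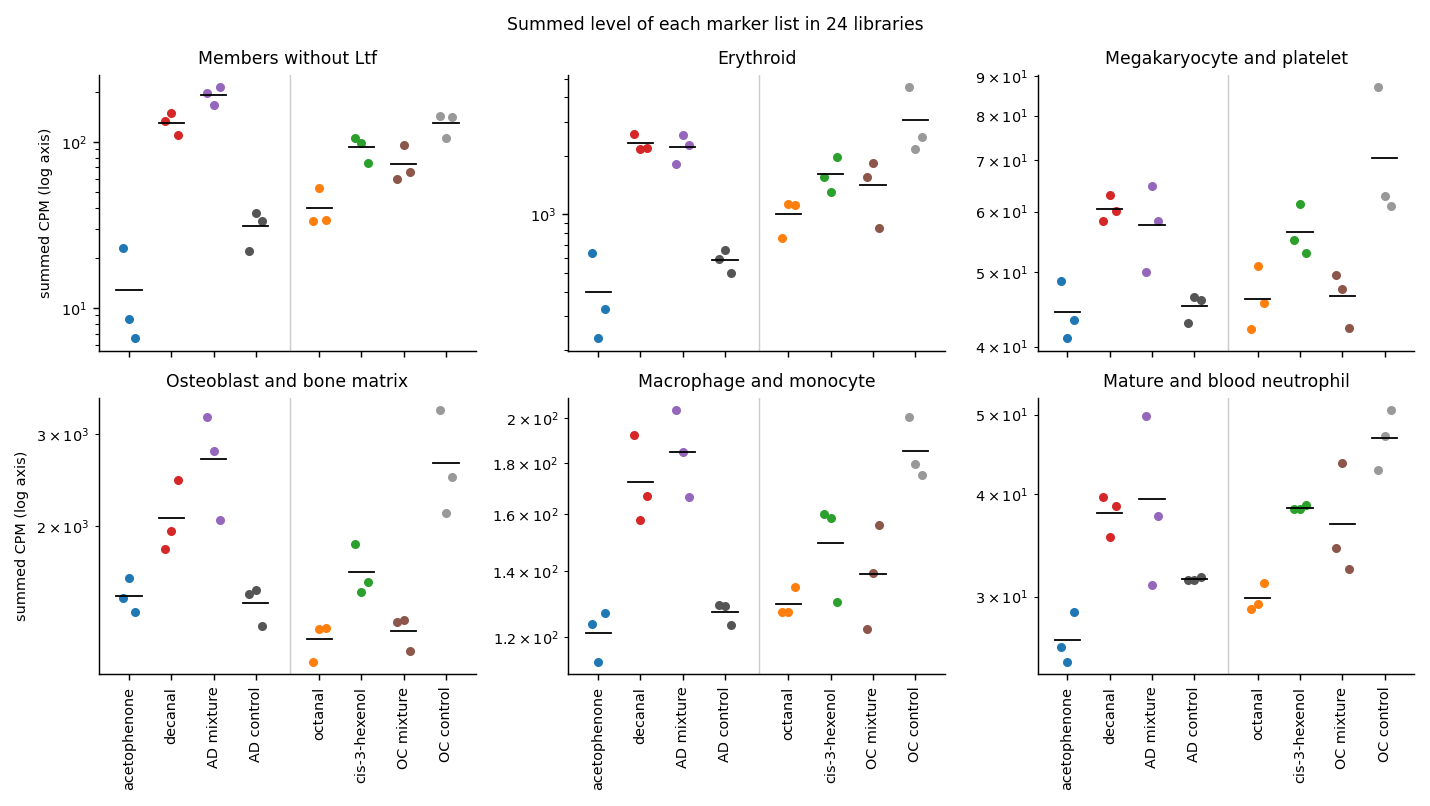
Summed CPM of 6 gene lists in every library, on log axes, with the odorant groups left of the control in each batch and bars at group means (n = 3). The 9 granule genes, the erythroid genes and the bone matrix genes are higher with decanal and in the AD mixture than in the AD control and lower with octanal than in the OC control, and the mature neutrophil genes span the narrow range of 25.01 to 50.6 CPM.

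Among the 8 genes outside the 10 whose batch-centred log2 CPM was most like their mean over the 24 libraries stood Ly6c2 (Pearson r = 0.97, Spearman rho = 0.97), a surface marker of monocytes, Ctsg (0.96 and 0.97), Pf4 (0.94 and 0.95), Ppbp (0.94 and 0.94), Ctse (0.94 and 0.93), Ms4a3 (0.94 and 0.91) and Hbb-bt (0.93 and 0.90). They belong to monocytes, promyelocytes, platelets and red cells, and the same 8 led the order when Ltf was left out of the mean. Without the farthest libraries, the second and the third with acetophenone, r ran between 0.89 for Hbb-bt and 0.96 for Ctsg. These values describe libraries that share their groups.

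Ltf was most like other genes, chosen here after its values were seen. Pglyrp1, a peptidoglycan recognition protein of granules and secretions, had r = 0.84 with it (0.77 without the third library of each control) and Wfdc18 had 0.78 (0.81 without them). Pglyrp1 stood at 9.85, 8.29 and 25.5 CPM in the AD control, highest in the library in which Ltf was at 580 CPM. It was nearly as high, at 23.0 CPM, in the first decanal library. Car6, a secreted carbonic anhydrase of glands, had r = 0.75 (0.60 without them). It stood at 2.52, 0.129 and 19.4 CPM in the AD control and at 0, 1.11 and 33.8 CPM in the OC control, and at no more than 6.47 CPM in any odorant library. The third library of each control was thus high for both Ltf and Car6, while the other 9 granule genes were not raised in the third AD control library, at 33.5 CPM beside 37.3 CPM in the second. Mup5 was likewise highest in these libraries, at 200 CPM in the third AD control library and 615 CPM in the third OC control library. It also stood at 148 CPM in the first decanal library. Klk14 was highest in the same libraries, at 17.8 CPM in the AD control and 10.8 CPM in the OC control. Not all genes like Ltf followed Car6. Crisp1 was higher in the second OC control library, at 13.6 CPM, than in the third, at 7.01 CPM.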

How the data were processed

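Per the labels' protocols, total RNA of olfactory epithelium was made into stranded poly(A) libraries and sequenced on 1 platform. The authors deposited 1 table of expected counts per Ensembl gene for each batch. The submitters' processing notes name STAR 2.7.10b, Salmon 1.10.1, R 4.4.2 and the build GRCm39, without their roles or the annotation. All 24 columns were mapped by batch and title.

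Values that were not whole (12.8% in the AD table, 12.6% in the OC table) were rounded. Symbols and transcript lengths came from GENCODE M21, of the earlier build GRCm38, by Ensembl ID. It named 52029 of 57010 IDs. edgeR 4.0.16 (R 4.3.3; limma 3.58.1) ran filterByExpr, TMM scaling and two-sided quasi-likelihood tests, 1 fit per batch over 12 libraries. The difference of responses came from a fit of 24 libraries. SE is the log2 fold change over the square root of F. Values in CPM use TMM-scaled totals. Intervals and floors cover counting error only. Alternatives were DESeq2 1.42.0 (size factors, Wald test), no filter, a replicate block, length and GC offsets, 6-library fits and each library left out.

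Genes named were the 10, up to 3 per list by smallest p, and the 8 most alike, of which some results are not reported here. Members and lists were chosen with earlier results of these data known. Genes named outside this rule were chosen after their values were seen.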

Additional observations from a re-analysis of the deposited data

Results flagged for a closer look

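The responses to decanal and octanal, each against its own control, differed for 9 of the 10 genes by the test of the difference itself in a fit of all 24 libraries with edgeR's quasi-likelihood test. In the same direction, 21.2% of all 20018 genes tested were called. The decanal response minus the octanal response, on the log2 scale, was 4.65 for Elane and 4.02 for Mpo among the early genes. Among the late genes it was 5.26 for Camp, 4.60 for Ngp, 4.28 for Mmp8, 4.70 for Retnlg, 3.10 for S100a8, 3.27 for S100a9 and 4.45 for Chil3. Adjusted p-values ran from 5.93e-08 for Chil3 to 6.45e-06 for Retnlg. The responses were in opposite directions in every library, since each decanal library lay above the AD control and each octanal library below the OC control for these genes. Of all genes tested, 20.7% lay above the AD control in every decanal library and 20.6% below the OC control in every octanal library. The odorants were given in different batches, so the odorant and the batch cannot be told apart, and the levels of the controls differed as given above.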

How the results depend on the processing

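The counts of 9 genes called with decanal, in the AD mixture and with octanal stayed between 9 and 10 under every alternative run. The count for the difference of responses stayed at 9. The others were 10 where Ltf joined without the low-count filter, and with octanal also without octanal library 3. Ltf joined as lower, which with decanal and in the AD mixture was opposite to the other 9. Other counts moved. For acetophenone, 8 of the 10 genes were called without the filter and 0 to 5 with 1 library left out, and the 1 gene called in all became 300 without the filter, 25 with DESeq2, 5 in the 6-library fit and 0 to 39 with 1 library left out. For cis-3-hexenol, 5 of the 10 were called without the filter, 1 with DESeq2, 1 in the 6-library fit and 0 to 2 with 1 library left out, and all genes called were 1266 with length and GC offsets, 1047 in the 6-library fit and 533 to 3150 with 1 library left out, against 2341. For the OC mixture, 3 to 9 of the 10 and 3035 to 4960 of all genes were called with 1 library left out, and 2816 of all in the 6-library fit, against 4647. Fewer libraries enter the 6-library and left-out fits. Without the filter, those of the 10 genes that joined the calls had smaller standard errors at nearly the same fold changes. The cause of this and of the other shifts was not tested.

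Directions turned for Ltf without the third AD control library (0.55 with decanal and 0.53 in the AD mixture, the highest values with 1 library left out, the lowest being -0.79 and -0.80), for Ltf in the difference of responses (-0.0262 without the filter, -0.33 to 1.00 with 1 library left out), for Retnlg with acetophenone (-2.35 to 0.0271 with 1 library left out) and for Mpo with cis-3-hexenol (-0.21 to 0.10 likewise). Leaving out Ltf, an alternative chosen after seeing the data, gave the late over early ratios of 9.60 with acetophenone, 4.24 with decanal, 3.99 in the AD mixture, 4.87 in the AD control, 7.01 with octanal, 4.36 with cis-3-hexenol, 5.13 in the OC mixture and 5.45 in the OC control. Same-numbered libraries did not deviate together (correlations of -0.186 to 0.24). Under the replicate block Mpo was called in the OC mixture, at -0.73 (adjusted p = 0.045), and no other of the 10 genes changed its call.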
